A study of Physcomitrium patens with 6 samples.

Results

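The 69 genes described here are the transcripts of moss protonema that took many reads and kept nearly the same scaled level through 1 hour of abscisic acid (ABA). They were selected on the measured values themselves: at least 200 counts per 1000000 (CPM) in each of 6 libraries, and a highest library CPM no more than 25% above the lowest, so that the ratio of the highest to the lowest (hereafter the range ratio) lies within that limit. They make up 69 of the 520 genes with at least 200 CPM in every library (13.3%), 69 of 18949 genes tested and 69 of 32926 gene IDs. CPM here is a gene's read count over the total of gene reads of its library, corrected by TMM (trimmed mean of M-values), which sets library sizes so that the bulk of genes shows no change on average. The small range of these genes is therefore what the selection fixed, and no test of it is given.

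ABA is the plant hormone of drought and osmotic stress. ABA-bound soluble receptors inhibit PP2C phosphatases, which frees SnRK2 kinases to activate transcription factors; mosses share this core pathway with flowering plants. Transcripts that keep their level under a treatment are of use as internal standards, and scalings such as TMM rest on most of the transcriptome being taken as unchanged. The gene IDs carry no names in the count tables and 0 of 32926 IDs matched the RefSeq gene table used here, so the genes are given by ID, with no name, function, position or sequence.

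The libraries came from protonema, the filamentous juvenile tissue of Physcomitrium patens, harvested 0, 30 or 60 minutes into ABA treatment, in 2 biological replicates each. Tissue 10 days old was broken up by sonication and grown for 3 days in shaken liquid medium before the hormone was added; control cultures received methanol, the carrier. The ABA concentration is 10 µM in the series design and 10 mM in the treatment protocol, which could not be reconciled from the labels, and no mutant or transgene is named. How long methanol acted on the 0 minute cultures is not stated, so ABA and time after an addition cannot be told apart. With 2 cultures per time, each SD below measures the spread of 2 libraries and each p-value only the spread between these cultures; each SE comes from a fit to all 6 libraries with a spread partly shared among genes. In whole tissue fewer cells of a type and less RNA per cell cannot be told apart.

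Each library held between 12450250 and 17822775 gene counts, and a single stable gene held between 2716 and 152984 reads in a library. Counting error was accordingly small: its coefficient of variation (CV) was 0.304% to 1.67% per gene, with a median of 1.33%. TMM factors were 1.18 and 1.13 at 0 minutes, then 1.04 and 1.05 after 30 minutes and 0.875 and 0.793 after 60 minutes, where the replicates lay farthest apart. The libraries are in the order replicate 1, replicate 2 wherever 2 values are given for 1 time.

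The read share of the stable genes was uneven. Pp3c4_17240, Pp3c13_7900 and Pp3c19_3840 together held 31.7% of the summed CPM of all 69. CPM does not allow for transcript length, so these are read shares and not an order of transcript number. Mean CPM over the 6 libraries ran from 224.5 to 6818 with a median of 359.4; 7 genes were at or above 1000 and 41 were below 400.

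Pp3c4_17240 took the most reads of the stable genes. Its CPM was 7305 and 6712 at 0 minutes, then 6259 and 6576 after 30 minutes and 6570 and 7487 after 60 minutes. The highest and the lowest library differed by 1.196 times, and the 60 minute replicates lay on both sides of the 0 minute ones. The 60 minute mean was 7028 ± 649 CPM and the 0 minute mean 7008 ± 419 CPM (SD, n = 2 each), a log2 fold change of 0.00 (SE 0.17).

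Pp3c13_7900 had 5227 and 5018 CPM at 0 minutes, then 4437 and 4245 after 30 minutes and 4662 and 5063 after 60 minutes. Pp3c19_3840 had 3652 and 3670 CPM at 0 minutes, then 3043 and 3006 after 30 minutes and 3312 and 3743 after 60 minutes. In both genes each 30 minute library was below each of the other 4. Pp3c27_7020 had 1913 and 1961 CPM at 0 minutes, then 1725 and 1758 after 30 minutes and 1715 and 2120 after 60 minutes. For Pp3c27_7020 the lowest and the highest value of the whole series were the 2 replicates of 60 minutes. Its range on the TMM scale thus lies between libraries of 1 time, and their unequal TMM factors, 0.875 and 0.793, enter it.

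The narrowest range belonged to Pp3c12_14940. It had 236.1 and 225.2 CPM at 0 minutes, then 228.7 and 236.0 after 30 minutes and 240.9 and 224.2 after 60 minutes, a range ratio of 1.075. All 3 times overlapped, and the time means of 231, 232 and 233 CPM differed by less than any pair of replicates did. Its CV over the 6 libraries was 2.93%, against 1.64% from counting alone. Pp3c12_14250 followed with 329.2 and 317.2 CPM at 0 minutes, then 326.1 and 335.2 after 30 minutes and 307.9 and 338.6 after 60 minutes. Pp3c5_16770 had 305.0 and 282.0 CPM at 0 minutes, then 283.5 and 283.3 after 30 minutes and 276.4 and 302.6 after 60 minutes. Their range ratios were 1.1 and 1.103, and in both genes replicate 1 of 60 minutes held the lowest value.

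At the other end of the set the limits cut through a continuous range. Pp3c18_6770, just within the ratio limit at 1.248, had 520.0 and 525.1 CPM at 0 minutes, then 425.7 and 420.9 after 30 minutes and 500.9 and 501.3 after 60 minutes. Pp3c7_12850, also at 1.248, had 964.4 and 930.5 CPM at 0 minutes, then 814.2 and 772.5 after 30 minutes and 833.2 and 875.3 after 60 minutes. Both differed more between 30 and 0 minutes than between the replicates of either time, so a ratio within the limit includes genes whose times separate. The first genes beyond the limit were Pp3c11_7910 at 1.253 and Pp3c4_8171 at 1.254. Pp3c4_8171 had 581.0 and 584.6 CPM at 0 minutes, then 466.1 and 475.9 after 30 minutes and 513.9 and 489.6 after 60 minutes: like Pp3c7_12850 it was highest at 0 minutes in both replicates.

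At the CPM minimum, Pp3c1_1330 and Pp3c5_23070 were just inside, with lowest libraries of 204.3 and 209.8 CPM. Pp3c16_21440 and Pp3c2_34550 were just outside, with lowest libraries of 199.8 and 195.1 CPM and ratios of 1.21 each. Pp3c1_1330 had 233.5 and 249.9 CPM at 0 minutes, then 204.3 and 208.5 after 30 minutes and 209.0 and 252.8 after 60 minutes.

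**Figure D1:**
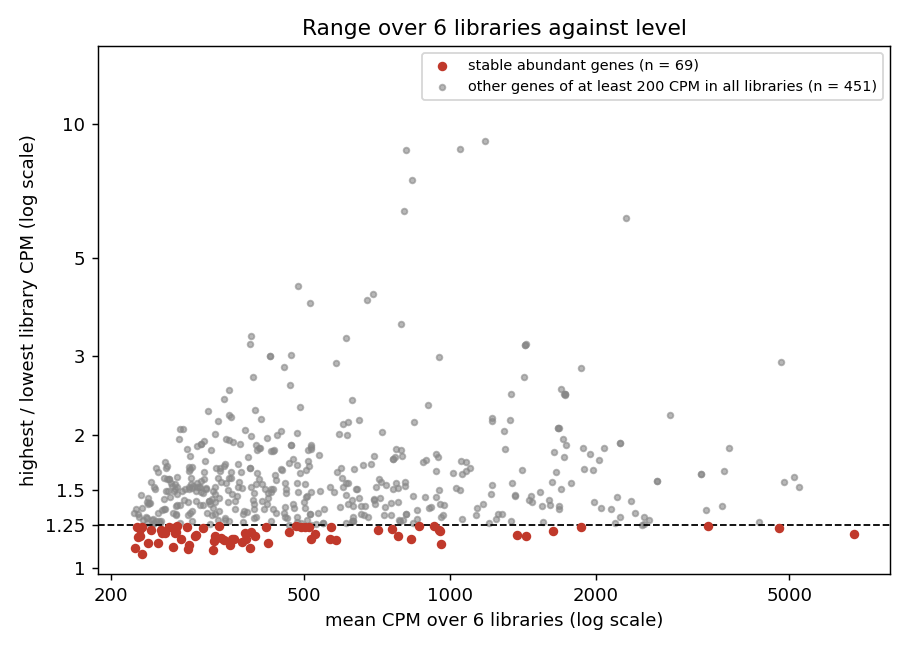
Each point is a gene with at least 200 CPM in all 6 libraries, placed by its mean CPM over the libraries (x, log scale) and by its highest library CPM divided by its lowest (y, log scale); the dashed line is the 25% limit. The 69 stable genes (red) lie between 1.075 and 1.248, only 7 of them at a mean of 1000 CPM or more, and the 451 other genes (grey) reach 9.15.

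Genes within 25% were found at every level. Among tested genes with a mean of 200 to 300 CPM, 9.68% had a range within 25%, and the share was 8.8% from 300 to 500 CPM, 9.04% from 500 to 1000 CPM and 5.47% (7 of 128) at 1000 CPM or more. Below the CPM minimum it was 9.25% from 100 to 200 CPM, 11.4% from 50 to 100 CPM and 8.48% from 10 to 50 CPM. The range ratio had a median of 1.196 for the stable genes and of 1.52 for the 451 other abundant genes, a difference that the selection sets.

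Within the limit, the range split into differences between replicates and differences between times. The 2 replicates of a time differed by a median of 1.06 times at 0 minutes, 1.03 times at 30 minutes and 1.08 times at 60 minutes. More than 1.1 times between replicates was seen for 20 of 69 genes at 0 minutes, 3 at 30 minutes and 22 at 60 minutes. Replicate 2 was the higher one for 36 of 69 genes at 0 minutes, 35 at 30 minutes and 47 at 60 minutes. On the TMM scale the 60 minute libraries thus differed mostly in one direction. With total gene counts the summed CPM of the 69 genes at 60 minutes was 40631 in replicate 1 and 39810 in replicate 2, so that direction depends on the factors. The highest and lowest time means of a gene differed by a median of 1.115 times. The rule bounds replicate ratios and ratios of time means in the 69 genes but not in the 451 others. The next counts therefore only describe the sets. For 33 of the 69 genes the largest replicate ratio exceeded the ratio of the time means, which held for 97 of the 451 other abundant genes. Pp3c11_6420, named after its values were seen, shows the first kind: it had 461.7 and 373.4 CPM at 0 minutes, then 407.8 and 426.6 after 30 minutes and 421.0 and 423.6 after 60 minutes, with time means within 1.012 times of each other.

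The spread over the 6 libraries and that from counting are given side by side as a description. The former takes in differences between times as well as between replicates. The CV over 6 libraries had a median of 6.84% (range 2.93% to 10.6%), where counting alone would give the median of 1.33% above. The chi-square per degree of freedom of the counts, which is near 1 where counting is the only source of spread, was 3.09 for Pp3c12_14940, 28.6 at the median and 549 for Pp3c4_17240.

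**Figure D2:**
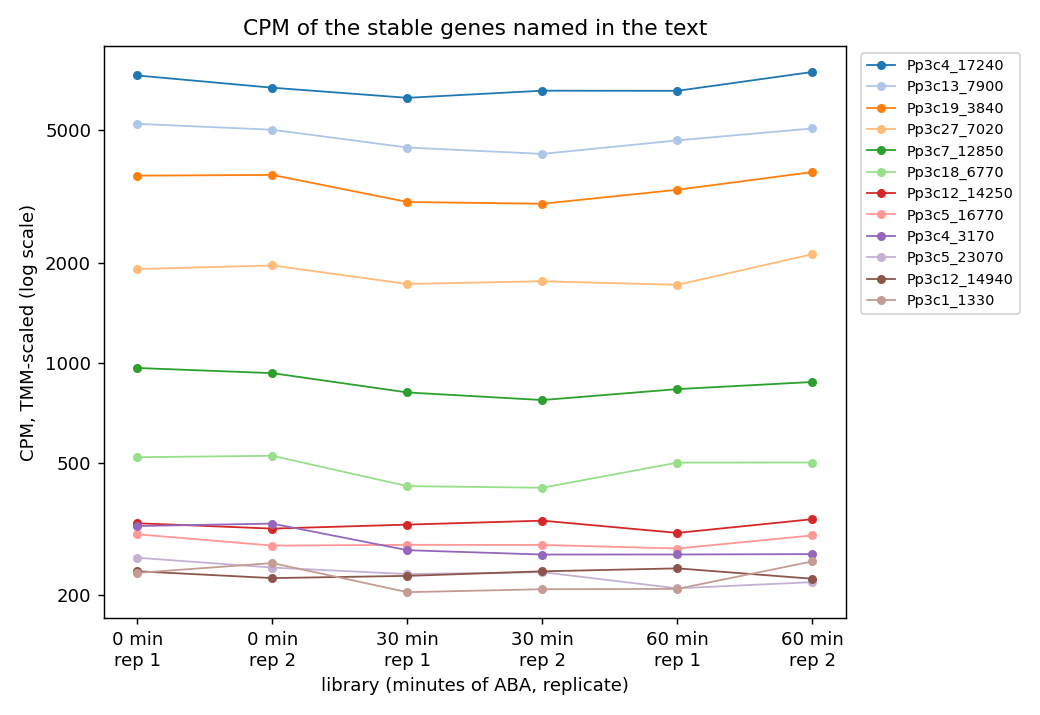
CPM (TMM-scaled, log scale) in each of the 6 libraries for the 12 stable genes chosen by the naming rule; each colour is a gene, and lines only link its libraries. Pp3c12_14940 stays between 224.2 and 240.9 CPM, and Pp3c18_6770 is lowest in both 30 minute libraries.

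The remaining variation was not spread evenly over the libraries. Of the 69 stable genes, 11 had their lowest time mean at 0 minutes, 46 (66.7%) at 30 minutes and 12 at 60 minutes. The lowest time mean was at 30 minutes for 50.3% of the other abundant genes and 22% of all tested genes. The lean to 30 minutes was thus partly shared with the other abundant genes. The highest time mean was at 0 minutes for 34, at 30 minutes for 8 and at 60 minutes for 27. Means rose at each step for 7 genes and fell at each step for 8. Relative to each gene's mean over 6 libraries, the median level was 1.03 and 1.03 at 0 minutes, then 0.957 and 0.953 after 30 minutes and 0.994 and 1.04 after 60 minutes. All these values are on the TMM scale, and the place of the lowest level depends on it. With total gene counts the mean summed CPM of the 69 genes was 56206, 46571 and 40220 at 0, 30 and 60 minutes, lowest at 60 minutes. With upper-quartile factors it was 56029, 43168 and 43541.

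Both 30 minute libraries were below the other 4 for 24 of the 69 genes (34.8%), where 8.72% of all tested genes had that order; both were above the other 4 for 2 of 69 (2.9%), where 9.75% of all tested genes were. The other abundant genes showed the low order in 108 of 451 cases (23.9%). The rule read these same libraries and the counts rest on the TMM factors, so they describe the set and no test is attached. Taking out the part of this course that the set shares, by dividing each library by the set's median level, lowered the median range ratio to 1.168, and 5 genes then passed 25%.

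**Figure D3:**
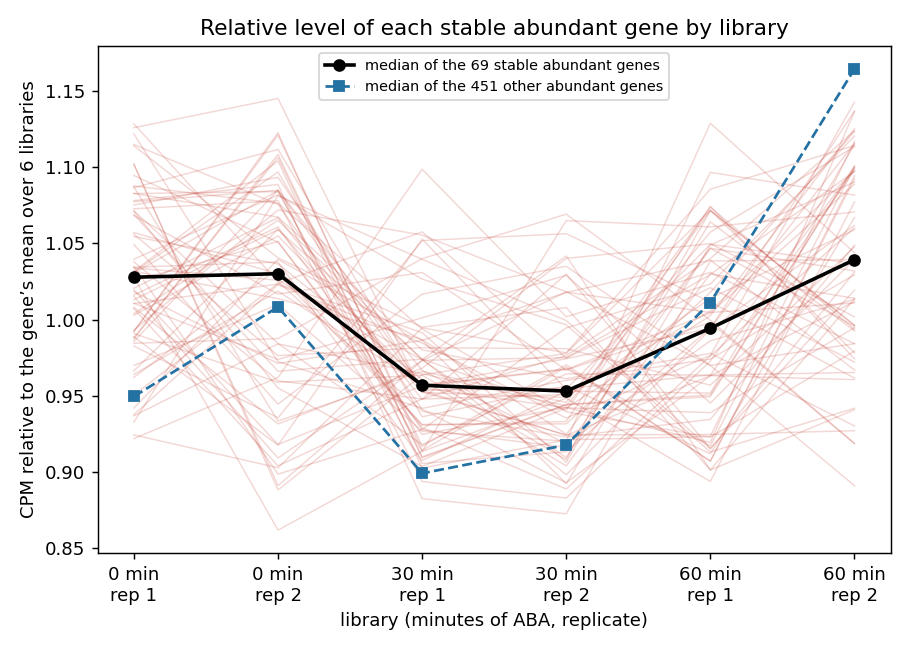
CPM of each gene divided by its own mean over the 6 libraries (y) for each library (x); thin red lines are the 69 stable genes, the black line their median and the dashed blue line the median of the 451 other abundant genes. On the TMM scale used here both medians are lowest at 30 minutes, and the other genes climb to 1.16 in replicate 2 of 60 minutes.

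The 30 minute libraries could be kept out of the choice, though not out of the TMM factors, by applying the rule to the 0 and 60 minute libraries alone. It then chose 132 genes, among them all 69. In these 132 the mean CPM at 30 minutes was below the mean of the other 4 libraries for 113 (85.6%), with a median of 0.900 times and a range of 0.626 to 1.40 times. Of the 408 genes that had at least 200 CPM in those 4 libraries but were not chosen, 357 (87.5%) were lower at 30 minutes, with a median of 0.860 times. Among all tested genes 56.3% were lower, with a median of 0.968 times. Most abundant genes, chosen or not, thus had a TMM-scaled 30 minute level below the mean of the 0 and 60 minute libraries. The shares of 85.6% and 87.5% are near each other, so this reading does not set the chosen genes apart. A gene rising at each step can meet that measure without a dip. Of the 451 other abundant genes of the full rule, 144 rose at each step, and 227 (50.3%) had their lowest time mean at 30 minutes.

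**Figure D4:**
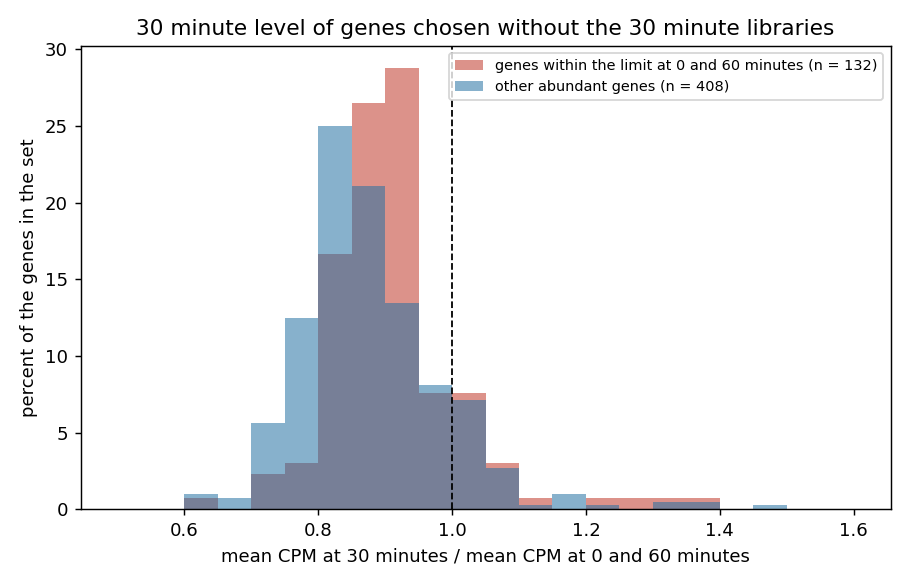
Mean CPM of the 2 libraries of 30 minutes divided by the mean CPM of the 4 libraries of 0 and 60 minutes (x), as the percent of genes in each set (y); the dashed line marks equal levels. The 132 genes that met the rule at 0 and 60 minutes (red) centre on 0.900 and the 408 other abundant genes (blue) on 0.860, both left of the line.

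Replicates also allowed a reading in libraries that the rule had not used. Chosen on the 3 libraries of replicate 1 alone, 265 genes met the rule, and 109 of them (41.1%) were also within 25% across the replicate 2 libraries, against 24 of 269 (8.92%) of the abundant genes not chosen. Chosen on replicate 2 alone, 140 genes met it, and 114 (81.4%) were within 25% across the replicate 1 libraries, against 161 of 424 (38%) not chosen. Of all abundant genes in these readings, 24.9% were within 25% across the replicate 2 libraries and 48.8% across the replicate 1 libraries. A gene that changes with time is wide in both sets of cultures. The contrast with the genes not chosen therefore only describes the lists, and nothing about stability is read from it. The TMM factors were computed from all 6 libraries in both readings.

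The 3 comparisons between times were fitted on all 18949 genes with edgeR's quasi-likelihood test and Benjamini-Hochberg adjustment, a gene being called at an adjusted p below 0.05. At 30 against 0 minutes 0 of the 69 genes were called, beside 36.4% of all genes tested; 2 had an unadjusted p below 0.05, and DESeq2 and limma-voom each called 1, Pp3c18_6770. At 60 against 30 minutes 0 were called, beside 36% of all genes; 0 had an unadjusted p below 0.05, and DESeq2 and limma-voom called 0. At 60 against 0 minutes 1 was called, beside 57.9% of all genes; 2 had an unadjusted p below 0.05. Without replicate 1 or replicate 2 of 60 minutes, 2 genes were called at 30 against 0 minutes in either case, beside 47.6% and 47.5% of all genes, and 3 and 1 at 60 against 30 minutes, beside 42.7% and 35.1% of all genes. Low counts of calls follow from the 25% limit, and nothing is read from them.

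The gene called was Pp3c4_3170. It had 265.2 and 265.9 CPM at 60 minutes, against 322.9 and 328.4 CPM at 0 minutes, and its 30 minute libraries had 273.2 and 265.1 CPM. The 60 and 0 minute libraries did not overlap and differed by more than the replicates of either time. It fell by 0.29 on the log2 scale (SE 0.11, adjusted p = 0.0368 in edgeR's quasi-likelihood test). The call is not firm: adjusted p was 0.116 and 0.161 without replicate 1 or 2 of 0 minutes, 0.108 and 0.106 without replicate 1 or 2 of 30 minutes, and 0.0686 with RLE scaling, in a range of 7.3e-05 to 0.161 over all alternatives. Pp3c17_7790, named after its values were seen, was the closest to a call upward, with 292.3 and 300 CPM at 60 minutes and 248.9 and 243.1 CPM at 0 minutes; its 30 minute libraries were between, at 267.8 and 263.4 CPM. Its log2 fold change at 60 minutes was 0.27 (SE 0.11, adjusted p = 0.0533 in edgeR's quasi-likelihood test), and it was called higher with RLE factors, by DESeq2 and by limma-voom.

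With TMM factors the fold changes of the set were small in each comparison and lay on both sides of 0. At 30 against 0 minutes they ran from -0.30 to 0.16 with a median of -0.10, and 54 of 69 were negative; all tested genes had a median of -0.02. At 60 against 30 minutes they ran from -0.16 to 0.24 with a median of 0.10, and 53 were positive; all tested genes had a median of 0.01. At 60 against 0 minutes they ran from -0.29 to 0.27 with a median of -0.01, and 39 were negative; all tested genes had a median of -0.04. The standard error of a single gene's fold change had a median of 0.12. The comparisons share libraries, and the opposite signs at 30 against 0 and 60 against 30 minutes use the same 30 minute libraries.

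Some genes nonetheless had libraries of 60 and 0 minutes that did not overlap. Both 60 minute libraries were below both 0 minute libraries for 16 of 69 genes (23.2%), where 40.5% of all tested genes were, and above them for 10 of 69 (14.5%), where 37.3% of all tested genes were. Of the other abundant genes, 151 of 451 were called higher and 70 lower at 60 than at 0 minutes with TMM factors. Among all 18949 genes tested, 5383 were called higher and 5587 lower. Calls in either direction covered 49% of the 451, beside 57.9% of all tested genes, and the median log2 fold change of the 451 was 0.17. The rule left these genes out for their wider range, so any contrast of their changes with those of the 69 is set by the selection.

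The level of the set as a whole depended on the scaling. As a share of all gene counts, with no TMM factor, the 69 genes took 5.78% and 5.46% at 0 minutes, then 4.65% and 4.67% after 30 minutes and 4.06% and 3.98% after 60 minutes. Each later time was lower than the one before, and libraries of different times did not overlap. The summed TMM-scaled CPM was 48838 ± 547 in the 0 minute cultures, 44640 ± 39 after 30 minutes and 48306 ± 2660 after 60 minutes (SD, n = 2 each), so at 60 minutes it was within the replicate spread of the 0 minute level. The mean TMM factor of 0.834 at 60 minutes and 1.151 at 0 minutes is the whole of the difference between these accounts. Without the factors, all 69 genes had both 60 minute libraries below both 0 minute libraries, which the factors fix for any gene within the limit, and the summed 30 minute level lay between them.

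**Figure D5:**
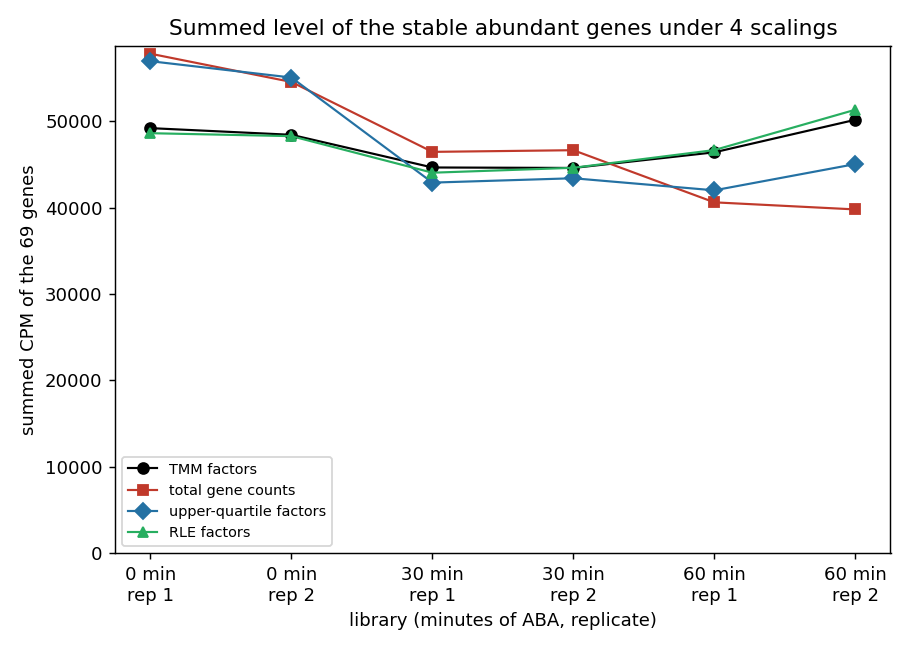
Summed CPM of the 69 genes (y, from 0) in each library (x) under 4 scalings. With TMM (black) and RLE (green) factors the sum returns at 60 minutes to its 0 minute level, while with total gene counts (red) it is highest, at 57842, in replicate 1 of 0 minutes and lowest, at 39810, in replicate 2 of 60 minutes.

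Which genes counted as stable depended on the scaling. With total gene counts 91 genes met the rule, and they shared 1 gene with the 69 (1.1% of the 91 and 1.45% of the 69). With upper-quartile factors 33 met it and 4 were shared (12.1% and 5.8%). With RLE factors, the median-ratio scaling of DESeq2, 61 met it and 54 were shared (88.5% and 78.3%). No gene met the rule under all 4 scalings, and 173 met it under at least 1. The 91 genes that were flat by total counts lay at a median of 0.42 (log2, 60 against 0 minutes) on the TMM scale. There 69 of them were called higher, beside 5383 of 18949 genes tested. The factors raise any gene flat by total counts, so this direction follows from the arithmetic.

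The gene shared with total counts was Pp3c17_7790, whose rise on the TMM scale and fall on the total-count scale were each within 25%. With total counts it had 292.5 and 273.8 CPM at 0 minutes, then 278.7 and 275.6 after 30 minutes and 255.8 and 237.9 after 60 minutes. Pp3c15_5850, Pp3c1_40650 and Pp3c27_2310 met the rule with upper-quartile factors as well as with TMM, as did Pp3c17_7790. These 4 genes were named after their values were seen. Pp3c27_2310, the only one of them above 1000 CPM, had 1290 and 1355 CPM at 0 minutes, then 1328 and 1299 after 30 minutes and 1456 and 1533 after 60 minutes on the TMM scale.

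For the 69 genes as chosen on the TMM scale, the distance from all genes is given under each set of factors; since a factor shifts all genes of a library alike, nearly equal distances follow from the arithmetic, and a set chosen on another scale would lie elsewhere. Set against the median over all tested genes, the median log2 fold change of the 69 was lower at 30 against 0 minutes under TMM, total counts, upper-quartile and RLE factors alike (by -0.0811 to -0.0807). At 60 against 30 minutes it was higher by 0.0898 to 0.0922, and at 60 against 0 minutes by 0.0258 to 0.0274. The last of these changed sign without replicate 2 of 60 minutes (-0.0259) and with a stricter filter of at least 1 CPM in every library (-0.0273). Without replicate 1 or 2 of 60 minutes the value at 60 against 30 minutes was 0.144 or 0.0277.

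The number of genes in the set rested on single libraries too. Applied to 5 libraries, the rule was met by 80 to 181 genes, and by 118 without replicate 2 of 0 minutes and 181 without replicate 2 of 60 minutes. Replicate 2 of 60 minutes held the highest value of 22 of the 69 genes, and replicate 2 of 30 minutes the lowest value of 20. Leaving a library out can only loosen the rule apart from its effect on the factors, and the largest gain came from the library with the smallest factor.

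The IDs of the 69 genes carried 24 of the 29 prefixes found among abundant genes, with at most 6 genes on one prefix (Pp3c1). Pp3c27 had 3 of its 5 abundant genes in the set, the largest share of any prefix with at least 5; the prefix was singled out after its values were seen. Of these, Pp3c27_7010 and Pp3c27_7020 are next to each other in the numbering and followed a like course, with a count ratio of 0.829 to 0.923 over the libraries.

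Some stable genes may not be independent measurements. Pp3c16_5660 and Pp3c16_5670, next to each other in the numbering, had 19755 and 19625 counts in replicate 1 of 0 minutes and 14619 and 14546 in replicate 2 of 60 minutes; their counts differed by at most 0.685% in any library. Pp3c1_21200 and Pp3c1_21230 had counts in a ratio of 1.014 to 1.019 in all 6 libraries. The tables list 0 ambiguous reads, the counting mode and strand setting are not given, and whether each pair counts the same reads, or near-identical copies, was not tested, so the values of these 4 genes are uncertain. Over all genes, 320 pairs of neighbouring IDs with more than 600 counts agreed within 5% in every library.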

How the data were processed

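The authors deposited 1 table of whole-number read counts per gene for each of 6 libraries (TruSeq stranded mRNA kit, per the labels' protocols). cutadapt, TopHat, HTSeq and DESeq2 appear, with no version, among the tools of the submitters' processing notes. Build, annotation and strand setting: not given in the sources used here. Library sizes leave out the 5 summary rows; reads in no gene were 1.66% to 2.14% of a library.

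CPM was computed as counts over gene total times TMM factor, after edgeR's filterByExpr (minimum count 10, minimum total 15), which left 18949 genes. Genes were tested with glmQLFit and glmQLFTest (edgeR 4.0.16, R 4.3.3) on all 6 libraries and 3 time means, with 3 residual degrees of freedom. The procedure was tested on simulated data with known changes. These touched a small part of the genes and were balanced up and down, so that test does not bear on the choice of scaling. Alternatives used DESeq2 1.42.0 and limma 3.58.1.

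The members, limits and tests were chosen with earlier results of these data known. Named genes are the 4 with the highest mean CPM, the 3 with the smallest ratio, the 2 on each side of each limit and up to 2 called in each direction at 60 minutes; exceptions are stated. Gene lists by function could not be used.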

Additional observations from a re-analysis of the deposited data

Results flagged for a closer look

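Reads in no annotated gene enter none of the comparisons of the 69 genes. They made up 1.671% and 1.662% of all counts in the 0 minute libraries, 1.987% and 2.036% in the 30 minute libraries and 2.137% and 1.726% in the 60 minute libraries. Each ABA library, up to the 2.137% of replicate 1 of 60 minutes, was above both 0 minute libraries.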

How the results depend on the processing

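The rule was met by 69 genes with no filter before TMM or kept-gene totals, 91 with total counts and 61 with RLE factors, but by 33 with upper-quartile factors. It was met by 142 at a 100 CPM minimum, 26 at 400 CPM, 13 at a limit of 15% and 272 at 50%. Read in replicate 1, replicate 2 or the 0 and 60 minute libraries alone it was met by 265, 140 and 132, and with 1 library left out by 80 to 181. Counting Pp3c16_5660 and Pp3c16_5670 once leaves 68, an alternative chosen after seeing the data, as was the kept-gene total.

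With total counts 23, 23 and 67 of the 69 genes were called at 30 against 0, 60 against 30 and 60 against 0 minutes, all lower, beside 37.6%, 42.1% and 68.3% of all genes. With upper-quartile factors 46, 0 and 50 were called, all lower, beside 48.7%, 35.7% and 65.3%. At 60 against 0 minutes all genes had a median of -0.50 (log2) with total counts, -0.39 with upper-quartile factors and -0.04 with TMM. At 30 against 0 minutes, 1 gene, Pp3c18_6770, was called by DESeq2, limma-voom and the stricter filter, and 2 with the replicate block or only the 4 libraries compared. At 60 against 0 minutes the 1 call was Pp3c17_7790, higher, with RLE factors and DESeq2; 2 were called by limma-voom and with the replicate block, and 0 with no filter, against a fold of 1.1 and with only the 4 libraries. Leaving out 1 library gave 0 to 2 calls at 30 against 0, 0 to 3 at 60 against 30 and 0 to 2 at 60 against 0 minutes. The cause of these changes was not tested. Replicate numbers are shared between times but are not stated to mark a culture or day; deviations of same-numbered libraries correlated at -0.0649, 0.0209 and 0.296, and the block serves only as an alternative.

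The summed CPM at 0, 30 and 60 minutes was 56206, 46571 and 40220 with total counts and 56029, 43168 and 43541 with upper-quartile factors; with RLE factors it was 44346 at 30 minutes. Of 768 recomputed fold changes of the 16 named genes, 161 moved by more than the replicate spread. Counting error was small beside the spread between libraries for these genes.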
